A study of Mus musculus with 24 samples.

Results

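The enzymes that carry sulphur from methionine into cysteine and then into taurine were followed through subcutaneous inguinal fat of 4 mouse strains on 2 diets. The 4 genes, Cth, Cbs, Cdo1 and Csad, were taken by name from the 37991 gene identifiers of the count table, and each matched 1 identifier (Cth ENSMUSG00000028179, Cbs ENSMUSG00000024039, Cdo1 ENSMUSG00000033022 and Csad ENSMUSG00000023044). All 4 passed the filter on low counts, which kept 20035 genes. The material was 24 poly(A) RNA-seq libraries, each from 1 female mouse of 26 weeks, and no genotype change or other agent is given beside strain and diet. Mice of the inbred strains WSB/EiJ, NZO/HiLtJ, C57BL/6J and CAST/EiJ had eaten, from 4 weeks of age, either a standard diet (17% of energy as fat) or a high-fat, high-sucrose diet (45% of energy as fat, 34% sucrose by weight), called high-fat here. Each of the 8 groups held 3 mice, and each library had between 47651641 and 84009032 counts.

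Cystathionine beta-synthase, encoded by Cbs, joins homocysteine from the methionine cycle to serine, and cystathionine gamma-lyase, encoded by Cth, splits the product to release cysteine. Both enzymes can also form hydrogen sulphide. Cysteine dioxygenase, encoded by Cdo1, oxidises cysteine to cysteine sulphinate, and cysteine sulphinate decarboxylase, encoded by Csad, turns that into hypotaurine, the precursor of taurine. The liver is a main site of all of these steps, and adipocytes are known to express Cdo1 strongly and to make taurine.

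Promoter sequence is shown for 2 of the 4 genes, so that the letters before the start site of Cbs, the 1 of the 4 enzymes that passed the diet test in NZO/HiLtJ mice, can be set beside those of Csad. The sequences are from RefSeq, build GRCm38.p6, and run 5′ to 3′ from 250 bases before to 50 bases after an annotated start, on the minus strand. Capitals mark a GC box (GGGCGG) or a CCAAT box (CCAAT) on either strand.
Cbs, chr17:31637156-31637455: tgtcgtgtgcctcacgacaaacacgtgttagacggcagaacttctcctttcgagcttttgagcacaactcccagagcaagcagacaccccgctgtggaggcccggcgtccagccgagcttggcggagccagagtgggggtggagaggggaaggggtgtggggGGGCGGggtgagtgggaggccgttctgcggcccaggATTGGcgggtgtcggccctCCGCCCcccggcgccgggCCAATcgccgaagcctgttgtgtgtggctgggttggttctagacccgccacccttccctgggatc
Csad, upstream start, chr15:102205003-102205302: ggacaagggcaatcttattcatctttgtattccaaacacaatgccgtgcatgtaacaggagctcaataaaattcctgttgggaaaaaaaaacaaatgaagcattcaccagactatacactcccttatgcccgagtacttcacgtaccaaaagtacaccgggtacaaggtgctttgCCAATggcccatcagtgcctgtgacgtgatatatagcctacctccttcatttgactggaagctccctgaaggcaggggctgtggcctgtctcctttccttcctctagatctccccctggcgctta
Csad, downstream start, chr15:102188994-102189293: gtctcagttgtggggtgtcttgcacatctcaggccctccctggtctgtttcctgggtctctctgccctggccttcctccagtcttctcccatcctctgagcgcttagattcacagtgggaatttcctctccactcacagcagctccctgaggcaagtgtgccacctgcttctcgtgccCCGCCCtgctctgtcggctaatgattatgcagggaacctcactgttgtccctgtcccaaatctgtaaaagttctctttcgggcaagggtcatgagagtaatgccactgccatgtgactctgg
The Cbs window held 2 GC boxes and 2 CCAAT boxes, the upstream Csad window 1 CCAAT box, and the downstream one 1 GC box. Of 32851 mouse promoter windows of this length, 35.7% held a GC box and 37.4% a CCAAT box. A CACGTG E-box, in 7.15% of windows, stood once before Cbs. TATAAA, TGATGNAA (an amino acid response element) and TGACNNNGC (an antioxidant response element) were in none of the 3 windows, against 13.6%, 3.97% and 12.4% of all windows. The capital matches did not overlap one another, both strands were searched, and a match describes letters only.

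One library stood apart from the rest. CAST/EiJ high-fat replicate 1 had a summed level of 7 adipocyte markers of 65.4 CPM (a gene's counts scaled to a fixed library total), while the other 23 libraries had 5459 to 16971. The same library held 175 CPM of the epithelial gene Epcam, 10477 CPM of smooth muscle markers, 4018 CPM of kidney markers and 678 CPM of reproductive tract markers. It had the highest Cbs and the lowest Cth, Cdo1 and Csad of all 24 libraries, so results are given with and without it where that changed a call, a direction or a count. Markers of other tissues were also higher in the WSB/EiJ high-fat mice, with an epithelial sum of 238, 404 and 701 CPM against 20.2, 21.5 and 48.9 on the standard diet, and adipocyte markers there were lower (5459 to 7960 against 10941 to 12969 CPM). In bulk tissue, fewer cells of a type and less RNA per cell cannot be told apart.

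The 4 transcripts differed widely in abundance. Scaled to the exon length of each gene, the median over libraries was 370 CPM per kilobase for Cdo1, 13 for Csad, 3.59 for Cth and 2.10 for Cbs. The exon lengths came from a later annotation than the counting used, and ranged from 1644 bases for Cdo1 to 7485 for Cbs. Within a gene, levels are given as normalised CPM, with the library total scaled by trimmed means. The lowest, median and highest Cdo1 levels were 37.0, 600 and 1080 normalised CPM. Csad ran from 11.0 through a median of 49.4 to 110, Cth from 1.32 through 10 to 21.6, and Cbs from 1.39 through 17.3 to 48.2.

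**Figure D1:**
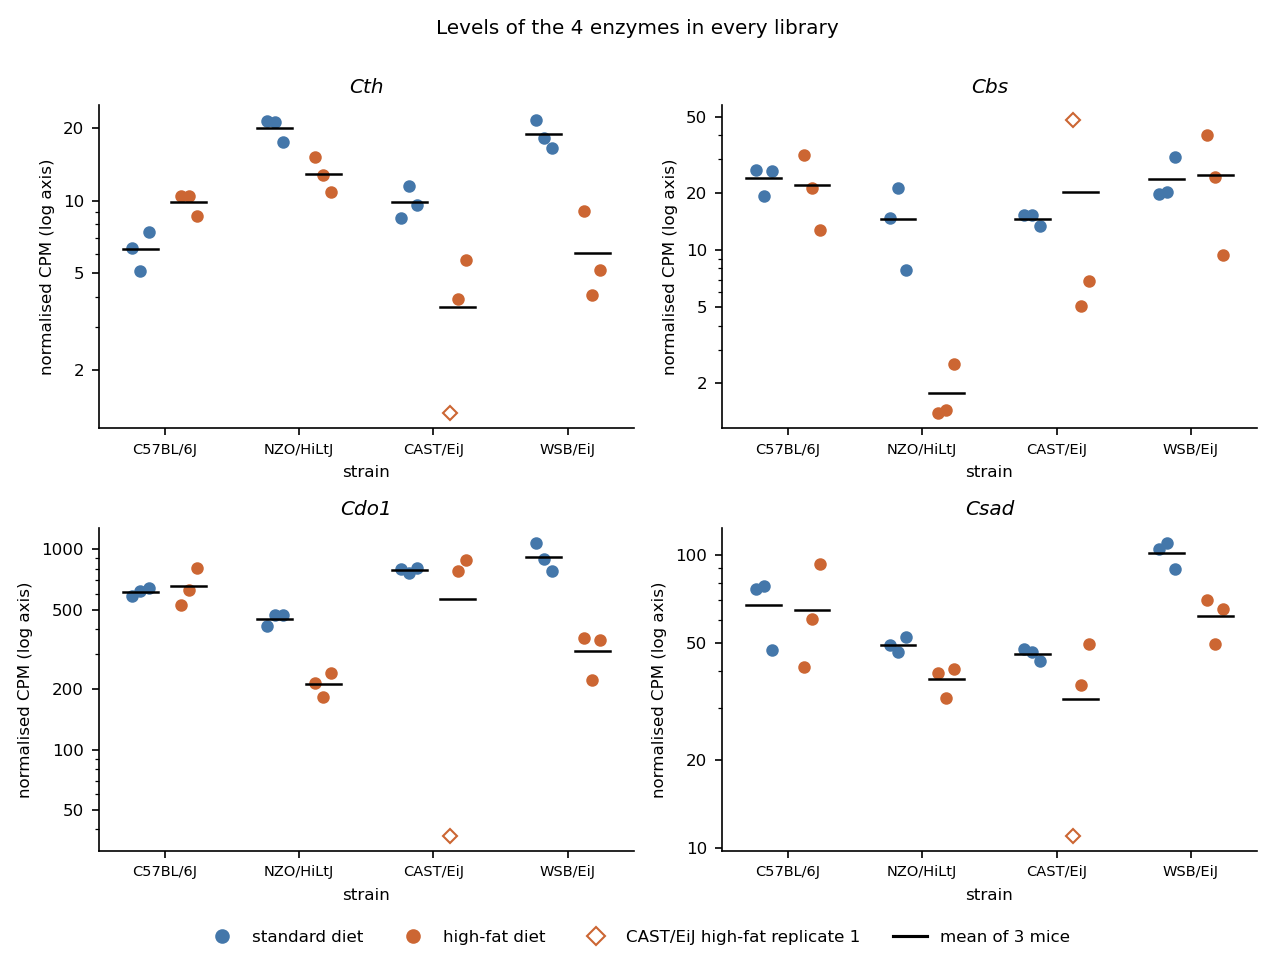
Normalised CPM (vertical log axes) of Cth, Cbs, Cdo1 and Csad in each of 24 libraries, by strain and diet, with bars at the mean of 3 mice. The open diamond is CAST/EiJ high-fat replicate 1, which lies lowest for Cth (1.32), Cdo1 (37.0) and Csad (11.0) and highest for Cbs (48.2).

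Cbs, the entry step, fell in NZO/HiLtJ mice on the high-fat diet. The 3 standard-diet NZO/HiLtJ mice had 14.7, 21.2 and 7.86 normalised CPM of Cbs. The 3 high-fat mice had 1.39, 1.44 and 2.53. These groups did not overlap, and the high-fat group was the lowest of all 8. The log2 fold change was -3.03 ± 0.70 (SE), an 8.15-fold lower level, with an adjusted p of 0.0171 in edgeR's quasi-likelihood test. Cbs was the 1 of 4 enzymes past the threshold of 0.05 in this comparison, where 4.89% of all genes passed. Without CAST/EiJ high-fat replicate 1 the value was -3.03 ± 0.47 (adjusted p = 0.000464), and 11.7% of genes passed.

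Markers of liver moved with Cbs in NZO/HiLtJ mice. The sum of 8 liver markers was 941, 1582 and 169 CPM in the standard-diet mice, in the same order as Cbs, and 42.8, 26.1 and 12.9 CPM in the high-fat mice, in the opposite order. All 8 markers fell in this comparison. With the liver sum as a covariate, the Cbs change was -1.40 (adjusted p = 0.403). In CAST/EiJ standard-diet mice, Cbs was 15.3, 15.2 and 13.3 normalised CPM while the liver sum was 52.6, 756 and 197 CPM. In C57BL/6J high-fat mice both had the same order, with Cbs at 31.7, 21.1 and 12.8 normalised CPM and the liver sum at 238, 72.6 and 24.8 CPM. Across all 24 libraries the r of Cbs with the liver sum was 0.42, and 0.44 over the 23 without CAST/EiJ high-fat replicate 1, as a description of libraries that differ in strain, diet and tissue makeup. Over the 24, the r of Cbs was -0.77 for macrophage, 0.62 for reproductive tract, 0.56 for kidney, 0.53 for epithelial and 0.52 for smooth muscle markers. Over the 23 these were -0.74, 0.57, 0.52, 0.46 and 0.44. All of these r span the 4 strains, and none was taken within NZO/HiLtJ mice. Relative to the summed adipocyte markers, Cbs was also lower in high-fat NZO/HiLtJ mice, by a log2 difference of -2.45 ± 0.48. Macrophage markers moved as well, from 705 to 1091 CPM on the standard diet to 2250 to 3017 on the high-fat diet, and their part in the result was not tested. The call was lost without NZO/HiLtJ standard replicate 2 (adjusted p = 0.085), high-fat replicate 1 (0.0826) or high-fat replicate 2 (0.112).

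**Figure D2:**
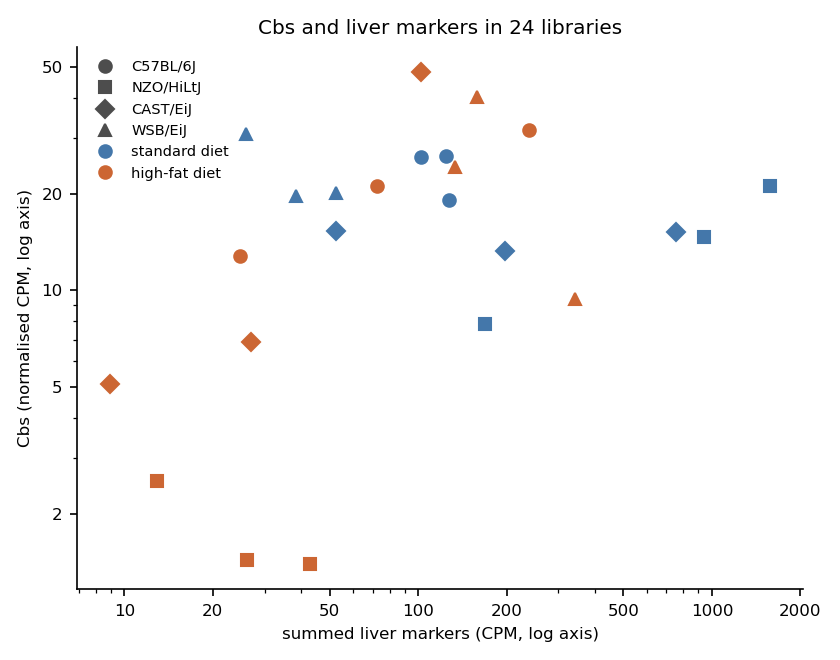
Cbs (normalised CPM, vertical log axis) against the sum of 8 liver markers (CPM, horizontal log axis) in 24 libraries, with a shape per strain and a colour per diet. The 3 NZO/HiLtJ high-fat libraries lie at the bottom left, with 1.39 to 2.53 normalised CPM of Cbs and 12.9 to 42.8 CPM of liver markers.

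In the other strains Cbs did not pass the test of diet. C57BL/6J mice had 26.3, 19.2 and 26.0 normalised CPM on the standard diet and 31.7, 21.1 and 12.8 on the high-fat diet (log2 fold change -0.12 ± 0.64). WSB/EiJ mice had 19.7, 20.1 and 30.7 against 40.2, 24.3 and 9.38 (0.07 ± 0.64). Both pairs of groups overlapped, and the high-fat mice were the more spread out. CAST/EiJ high-fat mice had 48.2, 5.11 and 6.88 normalised CPM, so that 1 mouse lay above and 2 lay below all 3 standard-diet mice. The direction in CAST/EiJ turned on that library: the change was 0.46 ± 0.65 with it (adjusted p = 0.655) and -1.29 ± 0.51 without it (adjusted p = 0.257).

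Cth, which releases cysteine, lay below the standard-diet mice in every high-fat mouse of 3 strains and above them in C57BL/6J, and it passed the test in WSB/EiJ and CAST/EiJ. WSB/EiJ mice had 21.6, 18.2 and 16.6 normalised CPM on the standard diet. On the high-fat diet they had 9.04, 4.09 and 5.16. The groups did not overlap, and Cth was the 1 of 4 enzymes that passed (log2 fold change -1.62 ± 0.36, adjusted p = 0.00824), in a comparison where 21.5% of all genes passed. It passed without each library in turn, at -1.63 ± 0.24 (adjusted p = 0.000204) without CAST/EiJ high-fat replicate 1. Relative to the adipocyte markers the WSB/EiJ difference in Cth was -0.57 ± 0.24, and the groups then overlapped. Over 24 libraries the r of Cth was -0.72 with epithelial, -0.67 with smooth muscle, -0.65 with reproductive tract and 0.65 with adipocyte markers. Over the 23 without CAST/EiJ high-fat replicate 1 these were -0.61, -0.51, -0.53 and 0.38. Smooth muscle markers were 1684, 1044 and 4958 CPM in high-fat WSB/EiJ mice against 68.2, 117 and 710 on the standard diet. The part of tissue makeup in the Cth call was not tested.

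CAST/EiJ mice had 8.47, 11.5 and 9.56 normalised CPM of Cth on the standard diet and 1.32, 3.91 and 5.69 on the high-fat diet. No high-fat mouse reached the lowest standard-diet mouse. Cth was the 1 of 4 enzymes past the threshold (-1.44 ± 0.36, adjusted p = 0.0414), with 4.87% of all genes. Without the first high-fat library the change was -1.05 ± 0.28 with an adjusted p of 0.109, 0 of 4 enzymes passed (2 at an unadjusted p below 0.05), and 0.304% of genes passed. Of 24 refits, each with 1 library dropped, 16 no longer called it.

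NZO/HiLtJ mice had 21.4, 21.2 and 17.5 normalised CPM of Cth on the standard diet and 15.1, 12.8 and 10.9 on the high-fat diet. The groups did not overlap, but the change of -0.63 ± 0.35 did not pass (adjusted p = 0.425; -0.63 ± 0.24 and 0.102 without CAST/EiJ high-fat replicate 1). C57BL/6J mice went the other way, with 6.4, 5.14 and 7.39 normalised CPM on the standard diet and 10.5, 10.5 and 8.67 on the high-fat diet. Every high-fat C57BL/6J mouse lay above every standard-diet mouse, and the change of 0.65 ± 0.35 did not pass edgeR's test (adjusted p = 1). In C57BL/6J 0 of the 4 enzymes passed in edgeR, DESeq2 or limma-voom, and 0 had an unadjusted p below 0.05 in edgeR, where 0.00998% of all genes passed. In the fit without CAST/EiJ high-fat replicate 1 the count was again 0 of 4, with 0.103% of genes past the threshold and Cth at an unadjusted p of 0.0156.

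**Figure D3:**
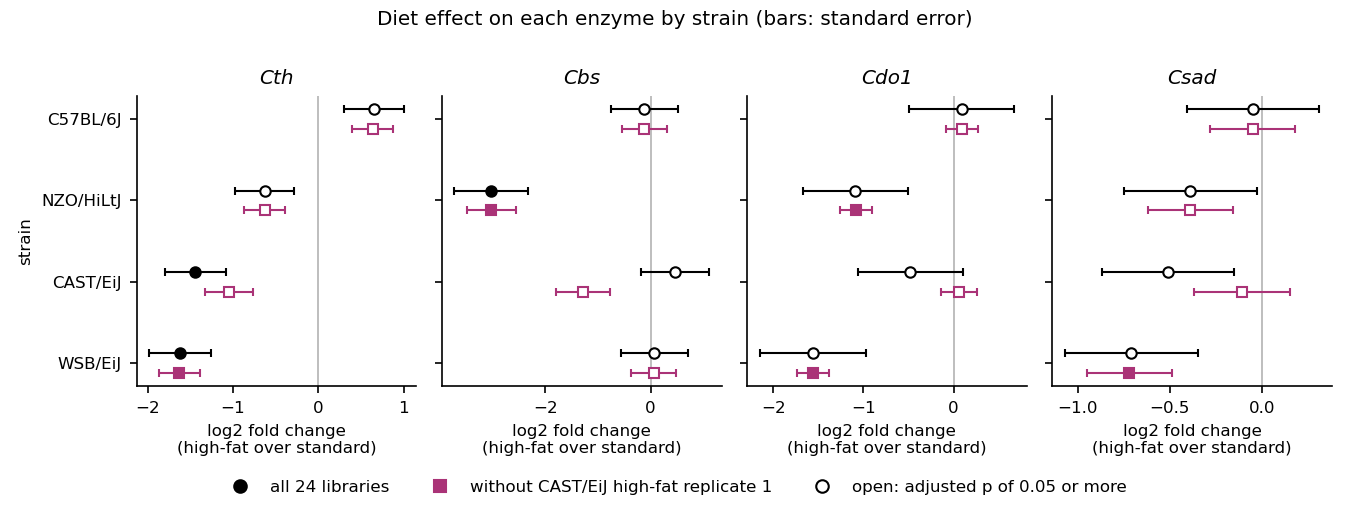
Log2 fold change, high-fat over standard, of each enzyme in each strain (horizontal axes; bars are standard errors), from all 24 libraries (circles) and without CAST/EiJ high-fat replicate 1 (squares). Filled symbols have an adjusted p below 0.05; Cdo1 is open in NZO/HiLtJ and WSB/EiJ with all libraries and filled without that one.

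Cdo1, the most abundant of the 4, was lower in 2 strains, and the call depended on the library that stood apart. NZO/HiLtJ mice had 412, 469 and 471 normalised CPM on the standard diet and 216, 182 and 240 on the high-fat diet. WSB/EiJ mice had 1080, 898 and 781 against 359, 223 and 353. In neither strain did the diets overlap. With all libraries the changes were -1.09 ± 0.58 in NZO/HiLtJ (adjusted p = 0.400) and -1.56 ± 0.59 in WSB/EiJ (adjusted p = 0.0647). Once CAST/EiJ high-fat replicate 1 was left out, the standard errors fell to 0.18, and both passed, at -1.08 (adjusted p = 0.000753) and -1.56 (adjusted p = 4.64e-05). In that fit 2 of 4 enzymes passed in NZO/HiLtJ, against 11.7% of all genes, and 3 of 4 in WSB/EiJ, against 39.8%.

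In the other strains Cdo1 did not pass the test. C57BL/6J mice had 583, 618 and 640 normalised CPM on the standard diet and 524, 627 and 808 on the high-fat diet. CAST/EiJ mice had 796, 759 and 810 against 37.0, 775 and 879. The value of 37.0 belongs to the library with almost no adipocyte markers, and the other 2 high-fat mice averaged 827 ± 73.2 (SD, n = 2). The CAST/EiJ change was -0.48 ± 0.58 with that library and 0.06 ± 0.20 without it.

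Csad, the decarboxylase, was highest in WSB/EiJ mice on the standard diet, at 105, 110 and 89.6 normalised CPM. On the high-fat diet these mice had 70.3, 49.6 and 65.5, below every standard-diet WSB/EiJ mouse. The change of -0.71 ± 0.36 did not pass with all libraries (adjusted p = 0.157) and passed without CAST/EiJ high-fat replicate 1 (-0.72 ± 0.23, adjusted p = 0.0225). NZO/HiLtJ mice had 49.2, 46.6 and 52.4 on the standard diet and 39.5, 32.4 and 40.9 on the high-fat diet, a change of -0.39 ± 0.36 that did not pass with all libraries (adjusted p = 0.685) or without that library (-0.39 ± 0.23, 0.328). In C57BL/6J (76.4, 78.0 and 47.3 against 41.3, 60.6 and 92.8) and CAST/EiJ (47.8, 46.6 and 43.4 against 11.0, 35.9 and 49.8) the diets overlapped. The CAST/EiJ change in Csad was -0.51 ± 0.36 with the first high-fat library and -0.11 ± 0.26 without it. Csad shares 278 exon bases, 7.26% of its exons, with Zfp740 on the opposite strand, and reads there may not be told apart. Zfp740 itself changed by no more than 0.23 on the log2 scale in any strain and passed no diet test.

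Set against adipocyte transcripts, the diet differences of Cth, Cdo1 and Csad in WSB/EiJ and NZO/HiLtJ mice became smaller or turned. The log2 ratio of Cdo1 to the 7 summed adipocyte markers differed between high-fat and standard mice by -0.57 ± 0.07 in NZO/HiLtJ and -0.46 ± 0.09 in WSB/EiJ, with no overlap between the diets in either strain. The Csad ratio was instead higher in WSB/EiJ, by 0.40 ± 0.06, and differed by 0.12 ± 0.06 in NZO/HiLtJ. The Cth ratio was higher in C57BL/6J, by 0.93 ± 0.31, and differed by -0.12 ± 0.20 in NZO/HiLtJ. In CAST/EiJ it differed by 1.22 ± 2.06 with the first high-fat library and by -0.83 ± 0.19 without it. No test was made of these ratios. With Adipoq as the only reference the NZO/HiLtJ values shifted, to 0.10 ± 0.12 for Cdo1, 0.55 ± 0.35 for Cth and 0.79 ± 0.13 for Csad. With the adipocyte sum as a covariate of the edgeR fit, Cdo1 fell in NZO/HiLtJ (-0.81, adjusted p = 0.000397) and in WSB/EiJ (-1.11, adjusted p = 6.05e-05). That fit called 2011 of all genes in NZO/HiLtJ and 6401 in WSB/EiJ, against 979 and 4305 without the covariate. The sum was 65.4 CPM in CAST/EiJ high-fat replicate 1 and 5459 to 16971 elsewhere, and how far that library set the covariate's effect was not tested.

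**Figure D4:**
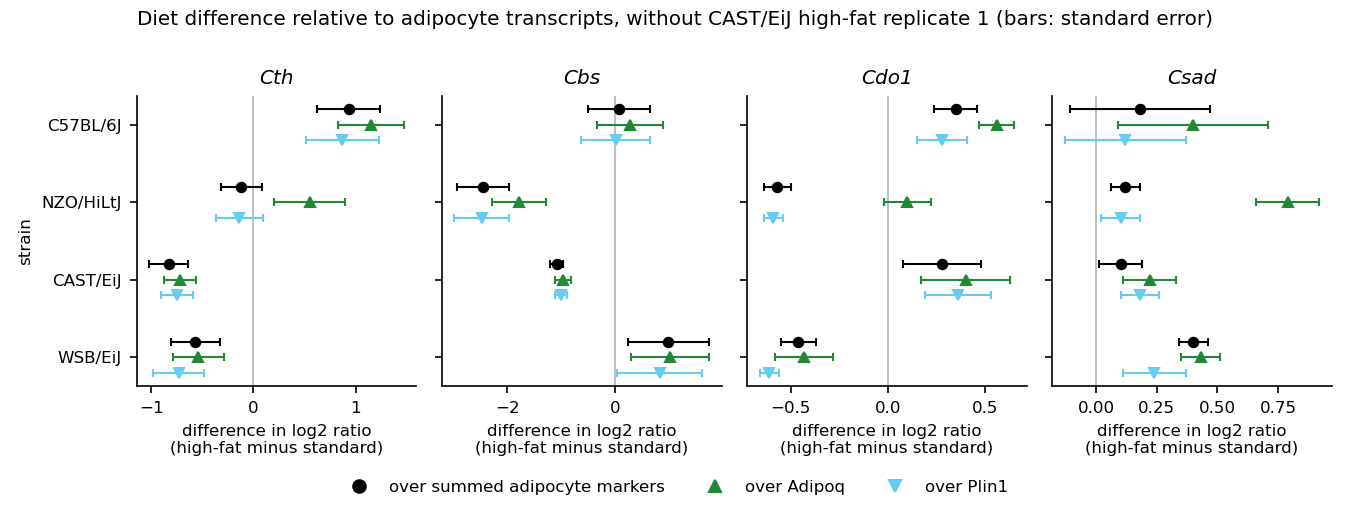
High-fat minus standard difference in the log2 ratio of each enzyme to adipocyte transcripts (horizontal axes; bars are standard errors), by strain, without CAST/EiJ high-fat replicate 1. The references are the summed markers, Adipoq or Plin1, and for Cdo1 in NZO/HiLtJ they part: -0.57 over the summed markers and 0.10 over Adipoq.

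Averaged over the 4 strains, Cth fell on the high-fat diet (-0.76 ± 0.18, adjusted p = 0.00814), 1 of 4 enzymes in a comparison that called 28.9% of all genes. The values for the others were -0.76 ± 0.29 for Cdo1 (adjusted p = 0.0559), -0.66 ± 0.33 for Cbs (0.128) and -0.42 ± 0.18 for Csad (0.0854). Without CAST/EiJ high-fat replicate 1, 3 of 4 passed: Cth (-0.66), Cbs (-1.09, adjusted p = 0.00267) and Cdo1 (-0.62, adjusted p = 0.000299), again with 28.9% of genes. The median change of the 4 was -0.71 with all libraries and -0.64 without that one, against 0.05 and 0.03 over all genes.

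The diet effect differed between strains for Cth (interaction test over 3 degrees of freedom, adjusted p = 0.0453), 1 of 4 enzymes where 3.08% of genes passed. The test kept its call in 5 of the 24 fits without 1 library. Once CAST/EiJ high-fat replicate 1 was left out, Cth (0.00291), Cbs (0.0107) and Cdo1 (0.00116) passed, 3 of 4 against 17.6% of genes. Csad did not pass in either fit (0.780 and 0.360).

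The level of Cth differed between strains on the standard diet. C57BL/6J mice had 6.31 ± 1.13 normalised CPM (SD, n = 3), CAST/EiJ 9.84 ± 1.53, WSB/EiJ 18.8 ± 2.58 and NZO/HiLtJ 20 ± 2.17. WSB/EiJ and NZO/HiLtJ overlapped, and all other neighbours in this order were separate. The test of any difference between strains gave an adjusted p of 0.00237 for Cth and 0.0386 for Csad, 2 of 4 enzymes where 49.6% of all genes passed. The Csad call was lost in 11 of 24 fits without 1 library (adjusted p up to 0.115): without any of the 9 standard-diet libraries of NZO/HiLtJ, CAST/EiJ and WSB/EiJ, without C57BL/6J standard replicate 1 and without NZO/HiLtJ high-fat replicate 1. In the fit without CAST/EiJ high-fat replicate 1, Cdo1 passed as well (adjusted p = 0.000436), 3 of 4 against 64.4% of genes. Cbs did not pass in either fit (0.599 and 0.245).

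Among pairs of strains on the standard diet, Cth was higher in NZO/HiLtJ than in C57BL/6J (1.67 ± 0.36, adjusted p = 0.00713; 8.36% of all genes passed) and higher in WSB/EiJ than in C57BL/6J (1.57 ± 0.36, adjusted p = 0.00442; 22% of genes). It was lower in CAST/EiJ than in NZO/HiLtJ (-1.03 ± 0.36, adjusted p = 0.0317; 35.1% of genes). Csad was higher in WSB/EiJ than in NZO/HiLtJ (1.04 ± 0.36, adjusted p = 0.0409; 28.1% of genes) and than in CAST/EiJ (1.14 ± 0.37, adjusted p = 0.0294; 23.5% of genes). Between CAST/EiJ and C57BL/6J 0 of 4 passed in edgeR, DESeq2 or limma-voom, with 0 at an unadjusted p below 0.05, where 28% of genes passed. The Csad difference from NZO/HiLtJ was lost without any of the same 9 standard-diet libraries (adjusted p up to 0.111), and that from CAST/EiJ without any CAST/EiJ standard library or WSB/EiJ standard replicate 1 or 2 (up to 0.0903). The Cth difference of CAST/EiJ from NZO/HiLtJ was lost without NZO/HiLtJ standard replicate 1 or 2 or CAST/EiJ standard replicate 1 or 3 (up to 0.109), and that of NZO/HiLtJ from C57BL/6J without C57BL/6J standard replicate 2 (0.05). Without CAST/EiJ high-fat replicate 1 all 5 of these differences passed again, and 5 more did. Cdo1 was then higher in WSB/EiJ than in NZO/HiLtJ (1.04 ± 0.18) and C57BL/6J (0.60 ± 0.18), and higher in CAST/EiJ than in NZO/HiLtJ (0.82 ± 0.18). Cth was then higher in CAST/EiJ than in C57BL/6J (0.66 ± 0.24) and in WSB/EiJ than in CAST/EiJ (0.93 ± 0.24). The shares of all genes in that fit were 16.2% for NZO/HiLtJ and C57BL/6J, 39.6% for CAST/EiJ and C57BL/6J, 33.8% for WSB/EiJ and C57BL/6J, 46.6% for CAST/EiJ and NZO/HiLtJ, 40.4% for WSB/EiJ and NZO/HiLtJ and 33.9% for WSB/EiJ and CAST/EiJ.

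On the high-fat diet, Cbs had the widest strain differences. NZO/HiLtJ mice had 1.79 ± 0.645 normalised CPM (SD, n = 3), below every mouse of the other strains. The differences were -3.61 ± 0.72 from C57BL/6J (adjusted p = 0.00209), 3.49 ± 0.72 for CAST/EiJ over NZO/HiLtJ (0.000936) and 3.78 ± 0.73 for WSB/EiJ over NZO/HiLtJ (0.000728). Without the library that stood apart, CAST/EiJ exceeded NZO/HiLtJ by 1.74 ± 0.49 (adjusted p = 0.00832). CAST/EiJ was then also below C57BL/6J (-1.86 ± 0.52) and WSB/EiJ above CAST/EiJ (2.04 ± 0.52).

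Cth and Csad ordered the strains differently on that diet. Cth was lower in CAST/EiJ than in C57BL/6J (-1.44 ± 0.36, adjusted p = 0.00637) and NZO/HiLtJ (-1.83 ± 0.37, adjusted p = 0.000713), and lower in WSB/EiJ than in NZO/HiLtJ (-1.08 ± 0.36, adjusted p = 0.0242). With CAST/EiJ high-fat replicate 1 left out these were -1.03 ± 0.28 (adjusted p = 0.0089), -1.43 ± 0.28 (0.000519) and -1.08 ± 0.24 (0.00155). The last was lost without NZO/HiLtJ high-fat replicate 1 or 2 or WSB/EiJ high-fat replicate 2 or 3 (adjusted p up to 0.104). Csad passed as lower in CAST/EiJ than in C57BL/6J (-1.01 ± 0.36, adjusted p = 0.0489), but the groups overlapped and the call was lost in 21 of 24 fits without 1 library. It was -0.59 (adjusted p = 0.102) without CAST/EiJ high-fat replicate 1 and -0.65 (0.246) without C57BL/6J high-fat replicate 3. Over any strain difference 3 of 4 enzymes passed (Cth 0.00203, Cbs 0.00196, Csad 0.0485), against 56% of all genes, and Cdo1 did not (0.0755). The Csad call was lost in 19 of 24 fits without 1 library (adjusted p up to 0.0982, without C57BL/6J high-fat replicate 3). Without CAST/EiJ high-fat replicate 1 all 4 passed, Cdo1 at 4.27e-07 and Csad at 0.0176, against 71.6% of genes.

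By pair, the enzymes past the threshold on the high-fat diet were 1 of 4 for NZO/HiLtJ and C57BL/6J (14.9% of all genes), 2 for CAST/EiJ and C57BL/6J (25.9%) and 0 for WSB/EiJ and C57BL/6J (17.9%; 0 at an unadjusted p below 0.05, and 0 in DESeq2 and limma-voom). They were 2 for CAST/EiJ and NZO/HiLtJ (39.8%), 2 for WSB/EiJ and NZO/HiLtJ (36.6%) and 0 for WSB/EiJ and CAST/EiJ (26.7%; 1 at an unadjusted p below 0.05, and 1 each in DESeq2 and limma-voom). Once CAST/EiJ high-fat replicate 1 was left out, the counts in the same order were 3 (26.9% of genes), 2 (31%), 2 (31.9%), 3 (43.6%), 4 (49.6%) and 2 (44.6%). Cdo1 passed in 5 of these 6 pairs: NZO/HiLtJ was below C57BL/6J (-1.61 ± 0.18), CAST/EiJ (by 1.96 ± 0.20) and WSB/EiJ (by 0.56 ± 0.18), and WSB/EiJ was below C57BL/6J (-1.06 ± 0.18) and CAST/EiJ (-1.40 ± 0.20).

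Other genes of the pathway were taken as 5 lists of 44 genes, all of which were tested. With all libraries, 0 of 44 passed the diet test in C57BL/6J (1 at an unadjusted p below 0.05), 8 in NZO/HiLtJ, 4 in CAST/EiJ and 7 in WSB/EiJ, against 0.00998%, 4.89%, 4.87% and 21.5% of all genes. In the fit without CAST/EiJ high-fat replicate 1 the counts were 0 (3 at an unadjusted p below 0.05), 13, 0 (15 at an unadjusted p below 0.05) and 13, against 0.103%, 11.7%, 0.304% and 39.8% of all genes. In WSB/EiJ the share of the list past the threshold lay below that of all genes in both fits, and the difference was not tested. The median log2 change of the 44 genes was -0.04, -0.17, -0.18 and 0.02 in these strains, against 0.02, -0.01, 0.05 and 0.07 over all genes.

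Of 12 methionine cycle genes, 5 fell and 0 rose in NZO/HiLtJ in both fits, against 4.89% of all genes with all libraries and 11.7% without CAST/EiJ high-fat replicate 1. They were Gnmt, a glycine methyltransferase (-3.99 ± 0.89, adjusted p = 0.0136), Mat1a, the liver form of methionine adenosyltransferase (-5.04 ± 1.31), Bhmt and Bhmt2, which remethylate homocysteine (-4.91 ± 1.27 and -2.90 ± 0.58), and Ahcyl2 (-0.86 ± 0.19). Mat1a, Bhmt and Gnmt are known as liver genes, and in the standard-diet mice Mat1a was 20.5, 27.8 and 3.88 normalised CPM, the order of the liver markers given above. The part of liver RNA in these calls was not tested. Gnmt also fell in CAST/EiJ (-3.65 ± 0.89, adjusted p = 0.0387), where 0 methionine cycle genes passed without the first high-fat library.

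The list for sulphide oxidation and sulphur transfer had 5 genes, and sulphide itself was not measured. Mpst and Tst, a pair of sulphurtransferases, fell in WSB/EiJ (Mpst -0.80 ± 0.18, Tst -2.09 ± 0.50) and in CAST/EiJ (-0.78 ± 0.18 and -1.88 ± 0.50), and the CAST/EiJ calls were lost without the first high-fat library. Both WSB/EiJ calls were kept without CAST/EiJ high-fat replicate 1 (Mpst -0.80 ± 0.15, Tst -2.09 ± 0.41) and without WSB/EiJ high-fat replicate 2 (-0.63 ± 0.18 and -2.04 ± 0.60). Adipocyte markers were also lower in high-fat WSB/EiJ mice (5459 to 7960 against 10941 to 12969 CPM), and Mpst and Tst were not set against them. Averaged over strains 4 of the 5 fell and 0 rose in both fits, where 28.9% of all genes passed.

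Of 7 genes at the cysteine breakdown and taurine steps beside the 4 enzymes, NZO/HiLtJ mice had 1 higher and 1 lower. Ado, which oxidises cysteamine to hypotaurine, rose from 8.70 ± 0.482 to 12.7 ± 1.09 normalised CPM (0.54 ± 0.14, adjusted p = 0.0325), and Baat, which joins taurine to bile acids, fell from a low level (1.47 ± 0.831 to 0.0273 ± 0.0236 normalised CPM). The standard-diet mice had 1.78, 2.09 and 0.524 normalised CPM of Baat, the order of the liver markers, and the part of liver RNA was not tested. In WSB/EiJ, Fmo1, which can oxidise hypotaurine to taurine, fell (-1.89 ± 0.60, adjusted p = 0.0339). Got1, a cytosolic aspartate aminotransferase, rose there (2.10 ± 0.57, adjusted p = 0.0179), with 7.69, 70.5 and 22.4 normalised CPM in the high-fat mice. The WSB/EiJ mouse at 70.5 also had 2345 CPM of brain markers against 30.2 to 69.4 in the other libraries. Without that library Got1 was 0.93 ± 0.47 (adjusted p = 0.209) and Fmo1 -1.74 ± 0.70 (0.126), and neither passed. Of the 7 list genes called in WSB/EiJ with all libraries, 2 passed without it (Mpst and Tst), in a fit that called 7.58% of all genes.

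Among 10 carriers, Slc6a6, the taurine transporter, rose in NZO/HiLtJ (1.09 ± 0.22, adjusted p = 0.00632) and fell in CAST/EiJ (-0.86 ± 0.22, adjusted p = 0.0414, lost without the first high-fat library). NZO/HiLtJ mice had 48, 40.7 and 51.5 normalised CPM of Slc6a6 on the standard diet and 95.2, 109 and 94.8 on the high-fat diet, with no overlap. Its diet effect differed between strains (adjusted p = 0.00952). In WSB/EiJ, Slc1a4, a carrier of neutral amino acids, passed as higher (1.76 ± 0.40), with 3.42, 2.58 and 3.96 normalised CPM on the standard diet and 6.23, 19.7 and 7.66 on the high-fat diet. The value of 19.7 belongs to the mouse with the high brain markers, and without it the change was 1.05 ± 0.34 and did not pass (adjusted p = 0.064). Slc3a2, the shared chain of several amino acid carriers, was lower (-0.50 ± 0.17), and did not pass without that mouse (-0.49 ± 0.19, adjusted p = 0.116). Of 10 genes of glutathione and coenzyme A synthesis, 1 passed within a strain with all libraries, Ppcdc in WSB/EiJ (-0.34 ± 0.12, adjusted p = 0.0473), which did not pass without WSB/EiJ high-fat replicate 2 (0.16). Ggt1, a gamma-glutamyltransferase, was also lower in NZO/HiLtJ without CAST/EiJ high-fat replicate 1 (-4.15 ± 1.05, adjusted p = 0.0152). Summed kidney markers in NZO/HiLtJ were 9.53, 80.9 and 29.8 CPM on the standard diet and 2.98, 3.55 and 3.39 on the high-fat diet. The part of kidney RNA in the Ggt1 change was not tested. In the fit without CAST/EiJ high-fat replicate 1 the NZO/HiLtJ changes of Gnmt, Mat1a, Bhmt, Bhmt2, Ahcyl2, Ado, Baat and Slc6a6 moved by no more than 0.01 and passed again.

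**Figure D5:**
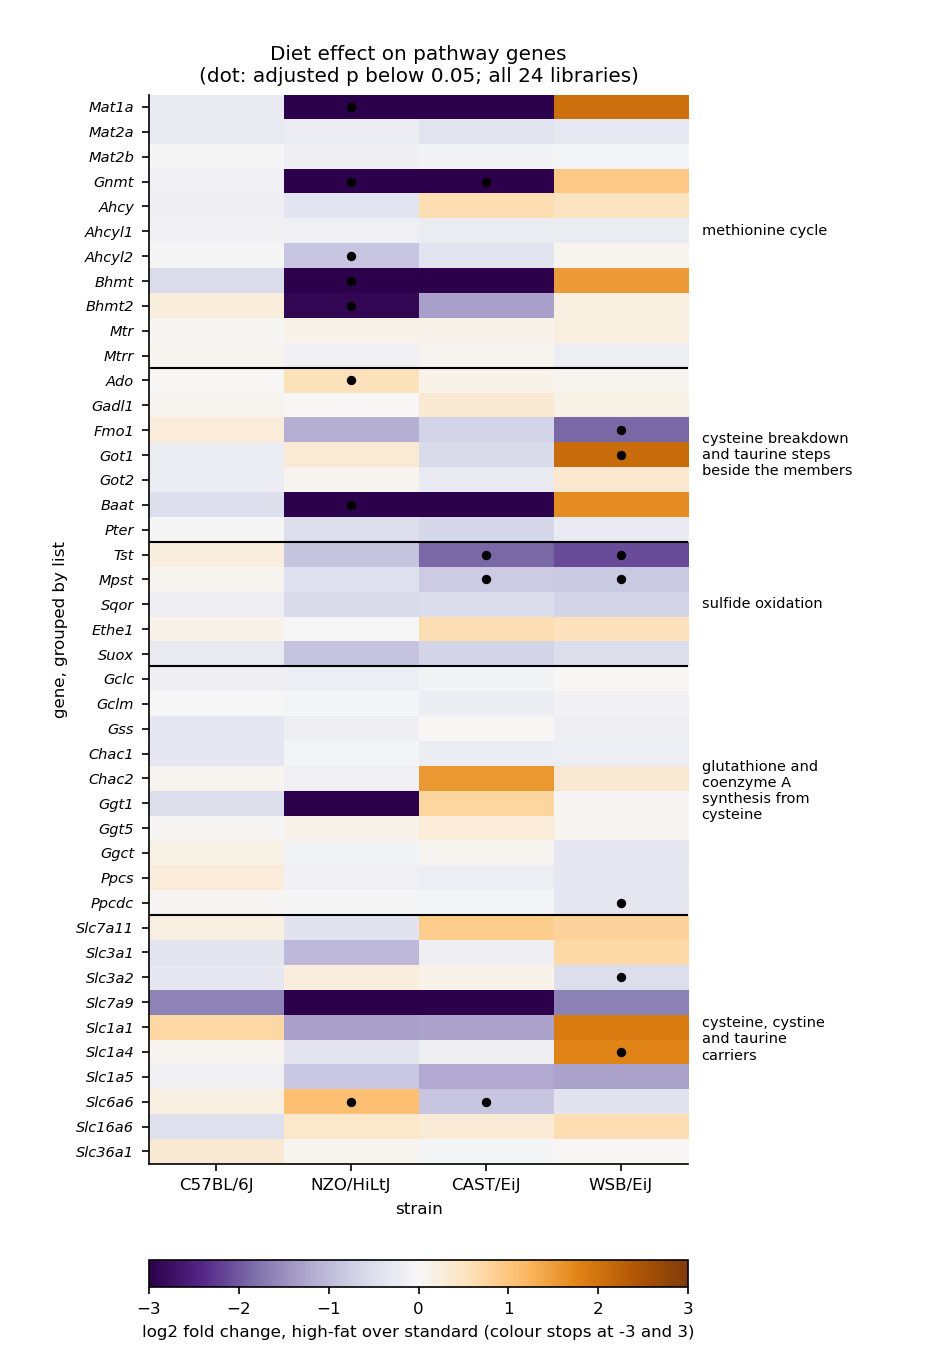
Log2 fold change, high-fat over standard, of 43 of the 44 pathway genes (rows, by list) in 4 strains (columns), from all 24 libraries; the colour scale stops at -3 and 3 and a dot marks an adjusted p below 0.05. C57BL/6J has no dots, and 5 of the 8 dots of NZO/HiLtJ are methionine cycle genes.

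Averaged over strains, 16 of the 44 genes passed and 15 of these fell, where 28.9% of all genes passed. The lowest adjusted p among them were those of Mpst (-0.49 ± 0.09, 0.00252) and Tst (-1.16 ± 0.25, 0.00551). Without CAST/EiJ high-fat replicate 1, 19 passed and 17 of these fell, again with 28.9% of genes. The interaction test called 4 of 44 genes (Slc6a6, Baat, Gnmt and Mat1a) with all libraries, against 3.08% of all genes, and 13 without that library, against 17.6%. Baat, Gnmt and Mat1a stood in the order of the liver markers in standard-diet NZO/HiLtJ mice, and the part of liver RNA was not tested.

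The genes most like each enzyme were sought by Pearson's r over the 24 libraries among 10726 named genes, as a description. For Cdo1 they were Aldh6a1, Mmachc, Nipsnap2, Fundc2 and Nfu1, with r from 0.96 to 0.97. For Csad they were Dhrs7b, Pdk2, Shpk, mt-Nd5 and Hnmt (0.92 to 0.95), and for Cth they were Cyb5b, Lrrc39, Mpnd, Map2k5 and Sycp3 (0.87 to 0.89). Cbs had the weakest matches, Npr2, Pacsin3, Abi3bp, Pex26 and Brcc3 (0.74 to 0.82). These libraries differ in strain, diet and tissue makeup, all of which enter r. In the 23 libraries without CAST/EiJ high-fat replicate 1 the closest genes were Zhx2 for Cdo1 (0.95), Mogat1 for Csad (0.93), Mmd for Cth (0.85) and Agt for Cbs (0.84).

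Among the 4 enzymes themselves, Cdo1 and Csad were the most alike over 24 libraries, with r of 0.75, and had 0.50 over the 23 without that library. Over the 23, Cbs and Csad were the most alike, with r of 0.55, against 0.17 over 24. Cth and Csad had r of 0.50 and 0.16. Cth and Cdo1 had r of 0.45 and 0.03, near 0 once that library was left out. Cbs and Cdo1 had r of 0.10 and 0.49, and Cbs and Cth -0.20 and -0.02. Differences between groups enter these r. With each group's mean removed, r over the 23 was -0.54 for Cbs and Csad and -0.57 for Cbs and Cdo1. It was then 0.75 for Cdo1 and Csad, 0.60 for Cth and Cdo1, 0.33 for Cth and Csad and 0.01 for Cth and Cbs. The group means removed still included CAST/EiJ high-fat replicate 1, so its values shifted the other 2 CAST/EiJ high-fat mice in these r. Cbs was 48.2 normalised CPM in that library against 5.11 and 6.88 in those 2, and Cdo1 was 37.0 against 775 and 879. How far that shift set the signs and sizes of these r was not tested.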

How the data were processed

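The authors deposited expected counts per gene, held as whole numbers, and an upper-quartile normalised signal equal to count over each library's 75th percentile of counts above 0, within 0.0005 (checked, not otherwise used). RSEM 1.2.1, Bowtie 0.12.8 and CASAVA 1.8.0 are named in the submitters' processing notes, with the builds NCBIM37 and mm9 and no role or order. How reads from the other strains' alleles were handled is not given in the sources used here.

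Expected counts were fitted in R 4.3.3 with edgeR 4.0.16 (TMM scaling, filterByExpr, 1 coefficient per group, 16 residual degrees of freedom, biological coefficient of variation 40.06%). Quasi-likelihood F tests were adjusted by Benjamini-Hochberg over 20035 genes, with a threshold of 0.05. Tests of a single difference are 2-sided, and those over 3 degrees of freedom have no direction. On simulated counts the fit was tested with known changes. Of 37991 identifiers, 32919 (86.65%) matched a symbol. Marker sums are unscaled CPM. Within groups, chi-square per degree of freedom between libraries was at least 22.1, so each counted as 1 mouse; replicate numbers follow deposit order.

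The 4 genes and all lists were chosen with earlier results of these data known. The text names the 4 genes in each comparison, up to 6 list genes per direction with the smallest adjusted p, and the 5 genes per enzyme with the highest r of log2(normalised CPM + 0.5) at a mean of 5 CPM or more. For the pathway lists, the fits without CAST/EiJ high-fat replicate 1 and without WSB/EiJ high-fat replicate 2 were added after seeing the data. Alternatives used DESeq2 1.42.0 and limma 3.58.1. One list gene is not reported here.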

Additional observations from a re-analysis of the deposited data

Results flagged for a closer look

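The diet effect on Cth differed between strains in the interaction test of edgeR's quasi-likelihood fit (adjusted p = 0.0453, and 0.00291 without CAST/EiJ high-fat replicate 1). All 3 high-fat C57BL/6J mice lay above all 3 standard-diet mice (log2 fold change 0.65 ± 0.35), while all 3 high-fat mice lay below in NZO/HiLtJ (-0.63 ± 0.35), CAST/EiJ (-1.44 ± 0.36) and WSB/EiJ (-1.62 ± 0.36). The C57BL/6J and NZO/HiLtJ changes did not pass on their own. Of 24 fits with 1 library dropped, 5 kept the interaction call. Group overlap is a description throughout, and the share of all genes without overlap is not given.

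Without CAST/EiJ high-fat replicate 1 the diet effects on Cbs (adjusted p = 0.0107) and Cdo1 (adjusted p = 0.00116) also differed between strains. Cbs then changed by -3.03 in NZO/HiLtJ and 0.06 in WSB/EiJ, and Cdo1 by -1.56 in WSB/EiJ and 0.06 in CAST/EiJ. With all 24 libraries these 2 tests gave 0.0967 and 0.472.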

How the results depend on the processing

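The count of enzymes past the threshold moved in most comparisons. With DESeq2 it was 2 in WSB/EiJ, on average and in the interaction test, and 4 in place of 3 among high-fat strains. With limma-voom it was 0 in NZO/HiLtJ and 1 between strains on the standard diet. Without the filter on low counts it was 0 in CAST/EiJ, 0 in the interaction test and 1 between strains on the standard diet. With the adipocyte covariate it was 2 in NZO/HiLtJ, 0 in CAST/EiJ, 2 in WSB/EiJ, 3 on average and 3 in the interaction test. With the liver covariate it was 0 in NZO/HiLtJ, 3 on average, 0 in the interaction test and 1 between strains on the standard diet. With only the groups compared it was 4 in NZO/HiLtJ, 0 in CAST/EiJ, 2 in WSB/EiJ and 1 among high-fat strains. Without the 6 libraries with at least 5 CPM of Epcam it was 3 in NZO/HiLtJ, 2 on average and 3 in the interaction test; no high-fat WSB/EiJ library remained, so WSB/EiJ had no diet value. Leaving out 1 library gave 0 to 2 in NZO/HiLtJ, 0 to 1 in CAST/EiJ, 1 to 3 in WSB/EiJ, 1 to 3 on average, 0 to 3 in the interaction test, and 1 to 3 and 2 to 4 between strains on the standard and high-fat diets. The pathway list counts without CAST/EiJ high-fat replicate 1 were 13 in NZO/HiLtJ, 0 in CAST/EiJ, 13 in WSB/EiJ and 13 in the interaction test.

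Signs turned for values that had not passed. In C57BL/6J, Cdo1 was -0.05 with the liver covariate, and Csad was 0.01 with the adipocyte covariate and 0.19 without the 6 libraries. In CAST/EiJ, Cbs was -0.15 with limma-voom, -1.31 with the adipocyte covariate and -1.29 without the 6 libraries, and Cdo1 was 0.16 and 0.07 under the last 2. In WSB/EiJ, Cbs was -0.15 with limma-voom, -0.22 with the adipocyte covariate and -0.62 with the liver covariate. On the high-fat diet with the liver covariate, Cbs was 0.04 for CAST/EiJ over C57BL/6J and -0.12 for WSB/EiJ over CAST/EiJ. Leaving out 1 library gave -0.5 to 0.15 (Cbs), -0.1 to 0.22 (Cdo1) and -0.4 to 0.19 (Csad) in C57BL/6J, -1.29 to 0.9 (Cbs) and -0.97 to 0.06 (Cdo1) in CAST/EiJ, -0.49 to 0.45 (Cbs) in WSB/EiJ, and -1.86 to 0.33 and -0.25 to 2.04 for the 2 Cbs pairs. Relative to Adipoq alone the differences were 0.55 (Cth), -1.78 (Cbs), 0.10 (Cdo1) and 0.79 (Csad) in NZO/HiLtJ and 0.56 (Cdo1) in C57BL/6J, and relative to Plin1 alone -0.61 (Cdo1) and 0.24 (Csad) in WSB/EiJ. The cause was not tested. No paired analysis was made, because each library came from its own mouse and the labels name no pairs. Whether depth limited the calls was not tested.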

Other observations

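Carriers of taurine and cystine differed between strains on the standard diet as well. Slc6a6, the taurine transporter, stood at 165 ± 16.4 normalised CPM (SD, n = 3) in CAST/EiJ, 71.4 ± 15.9 in WSB/EiJ, 46.7 ± 5.47 in NZO/HiLtJ and 41.1 ± 1.98 in C57BL/6J (edgeR test over strains, adjusted p = 1.28e-06). Slc7a11, the cystine and glutamate exchanger, had another order, at 28.2 ± 5.32 in NZO/HiLtJ, 14.6 ± 0.878 in C57BL/6J, 6.42 ± 1.27 in WSB/EiJ and 4.37 ± 0.424 in CAST/EiJ (adjusted p = 5.25e-06). Tst, a sulphurtransferase, was 99.3 ± 22.1 in WSB/EiJ and 66.9 ± 37.3 in CAST/EiJ against 12.6 ± 0.707 in NZO/HiLtJ and 9.85 ± 4.29 in C57BL/6J (adjusted p = 4.47e-05). In all, 26 of the 44 pathway genes differed between strains among standard-diet mice and 27 among high-fat mice, where 49.6% and 56% of all genes did. Without CAST/EiJ high-fat replicate 1 the counts were 35 and 34, where 64.4% and 71.6% of all genes did.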
